A study of Mus musculus with 30 samples.

Results

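Esrp1, Cdh1, Zeb1, Cdh2 and Vim, a set of 5 genes that mark or drive the switch between epithelial and mesenchymal cell states, were followed across 30 RNA libraries from mouse embryonic stem cells. They were picked by symbol from the 12428 genes of the deposited expression table, and all 5 were measured. The libraries were made from the 3' ends of transcripts, so a value counts tags near a gene's end and says nothing about splice isoforms.

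The cells were naive stem cells from a cross of the strains written C57BL/6J x 129, grown with serum, LIF and inhibitors of MEK and GSK3. All of them lacked Kmt2c, which encodes an enzyme that methylates histone H3 at enhancers. Double-KO cells also lacked Kmt2d, the gene of the related enzyme, whereas Kmt2c-KO cells kept Kmt2d in floxed form (written "Kmtd fl/fl" in the labels). Double-KO and Kmt2c-KO cells carried GRHL2-ERT, the epithelial transcription factor GRHL2 joined to a hormone-binding domain that lets tamoxifen move it into the nucleus. The groups were double-KO GRHL2-ERT cells in tamoxifen and in the vehicle ethanol, Kmt2c-KO GRHL2-ERT cells in tamoxifen and in ethanol, and Kmt2c-KO cells without the transgene in tamoxifen, each at 8 h and at 16 h with 3 libraries. Ethanol libraries without the transgene, and wild-type cells, were not analysed here. The GRHL2-ERT lines were chosen as clones with similar GRHL2 expression per the series' design text, so a difference between lines is also a difference between clones. Their Grhl2 tags were not alike in these libraries. In ethanol at 8 h they averaged 41.2 CPM in double-KO and 178 CPM in Kmt2c-KO GRHL2-ERT cells. No label says whether replicates came from separate cultures, and the p-values measure the spread between these libraries, which may be technical.

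In the epithelial state, cells are joined by E-cadherin, the product of Cdh1, and the splicing regulator ESRP1 keeps epithelial isoforms of many transcripts. In the mesenchymal state, ZEB1 represses epithelial genes, Cdh1 among them, and cells use N-cadherin, the product of Cdh2, and the intermediate filament protein vimentin, the product of Vim. GRHL2 and ZEB1 are known to repress each other in epithelial tumour cells, and naive embryonic stem cells, although not an epithelium, adhere through E-cadherin.

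Of the members' promoters, the table used here held a window for Vim, which is shown so that the binding letters of ZEB1 and GRHL2 can be looked for in it. The promoters of the other 4 members are not shown. The RefSeq window (GRCm38.p6, chr2:13574061-13574360, plus strand, 250 bases before to 50 after the start of transcription) reads as follows, with its only TATAAA in capitals.
Vim promoter: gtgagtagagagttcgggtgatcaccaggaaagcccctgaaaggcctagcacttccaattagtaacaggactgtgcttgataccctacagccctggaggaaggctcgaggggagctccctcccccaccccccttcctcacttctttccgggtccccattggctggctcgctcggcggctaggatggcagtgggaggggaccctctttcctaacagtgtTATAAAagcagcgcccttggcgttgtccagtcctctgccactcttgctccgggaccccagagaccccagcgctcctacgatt
The E-box CAGGTG, which ZEB1 is known to bind, was searched on both strands and had 0 matches in this window, whereas 20.2% of 32851 promoter windows of the same length held it. The GRHL core AACNNGTT also had 0 matches, against 4.2% of all windows. TATAAA, searched after the sequence had been read, had 1 match that starts 32 bases before the start of transcription (-32), and 13.6% of windows held it. As the only match, it overlaps no other searched motif, and a missing match says only that these letters are not in the window.

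On mm10, Esrp1 lies on chromosome 4 (11331933 to 11386783, minus strand), Cdh1 on chromosome 8 (106603351 to 106670246, plus strand) and Vim on chromosome 2 (13573927 to 13582826, plus strand). Zeb1 (5591860 to 5775467, plus strand) and Cdh2 (16588877 to 16809246, minus strand) are both on chromosome 18. Each is protein coding in GENCODE release M21. Genes on the opposite strand overlap Esrp1, Zeb1 and Cdh2 in that annotation, and a miRNA gene lies within Zeb1 on its own strand. None of these was analysed here, and whether tags were counted by strand is not given in the sources used here.

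Depth recovered from the spacing of low values ran from 8.86 to 22.1 M reads per library with a median of 16.2 M, so that 3 reads stand for 0.136 to 0.339 CPM, counts per M reads of a library. Between 95.6% and 97.5% of low values were whole reads within 0.05 read. Markers of naive embryonic stem cells were measured for 16 of 16 genes, with summed levels of 5535 to 12739 CPM. Kmt2d tags were 5.77 to 13.7 CPM in double-KO libraries, against 7.02 to 23.4 CPM in Kmt2c-KO GRHL2-ERT libraries, and Kmt2c tags were found in every library. The labels do not state which part of either gene was deleted, and 3' tags outside a deleted part check nothing. Grhl2 tags averaged between 41.2 and 178 CPM in the GRHL2-ERT groups, against 1.78 and 2.66 CPM in the 2 groups without the transgene. The tamoxifen library of double-KO replicate 2 at 8 h had the lowest depth and the lowest mean correlation with its group (0.938), and 7.37% of its CPM came from the ribosomal RNA gene Rn45s. Rn45s took 7.40% in the ethanol library of Kmt2c-KO GRHL2-ERT replicate 3 at 8 h. Without these 2 libraries every count of members called below stayed as given, except that Cdh1 was also called between Kmt2c-KO lines with and without GRHL2-ERT at 8 h.

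The members differed in how widely their levels ranged over the 10 groups. Mean Esrp1 levels spanned 50.9-fold (0.545 to 27.7 CPM) and Cdh2 levels 21.4-fold (1.60 to 34.3 CPM). Zeb1 spanned 4.65-fold (8.02 to 37.3 CPM), Vim 3.55-fold (36.5 to 130 CPM) and Cdh1 2.44-fold (101 to 247 CPM). Levels of different genes are not compared, since tag capture differs between transcripts.

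Esrp1 and Cdh1 were highest, and Zeb1, Cdh2 and Vim lowest, in the same group, Kmt2c-KO GRHL2-ERT cells after 8 h of tamoxifen. Double-KO cells after 8 h of ethanol were at the opposite end for all 5 genes. In the order of Esrp1 levels, the top group stood apart from the next, transgene-free cells in tamoxifen at 8 h (6.28 CPM), and the fourth, Kmt2c-KO GRHL2-ERT cells in tamoxifen at 16 h (4.91 CPM), stood apart from double-KO cells in tamoxifen at 8 h (2.06 CPM). All other neighbours overlapped. For Cdh1, all 9 pairs of neighbouring groups overlapped. For Zeb1, only double-KO cells in ethanol at 8 h stood apart from the next group, double-KO cells in tamoxifen at 8 h (24.99 CPM). The 4 double-KO groups had the 4 highest mean levels of Cdh2 and of Vim, and both genes were lowest in Kmt2c-KO GRHL2-ERT cells in tamoxifen at 8 h. For Cdh2, double-KO cells in tamoxifen at 16 h (13.9 CPM) were apart from the group above, double-KO cells in ethanol at 16 h (22.9 CPM), and from the group below, transgene-free cells at 16 h (7.44 CPM), and the 2 lowest groups were also apart. For Vim, double-KO cells in ethanol at 16 h (126 CPM) stood above the next, double-KO cells in tamoxifen at 16 h (88.9 CPM), although ethanol at 8 h (130 CPM) has a library within that group's range, and transgene-free cells at 8 h (60.8 CPM) stood above Kmt2c-KO GRHL2-ERT cells in ethanol at 8 h (46.8 CPM).

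**Figure D1:**
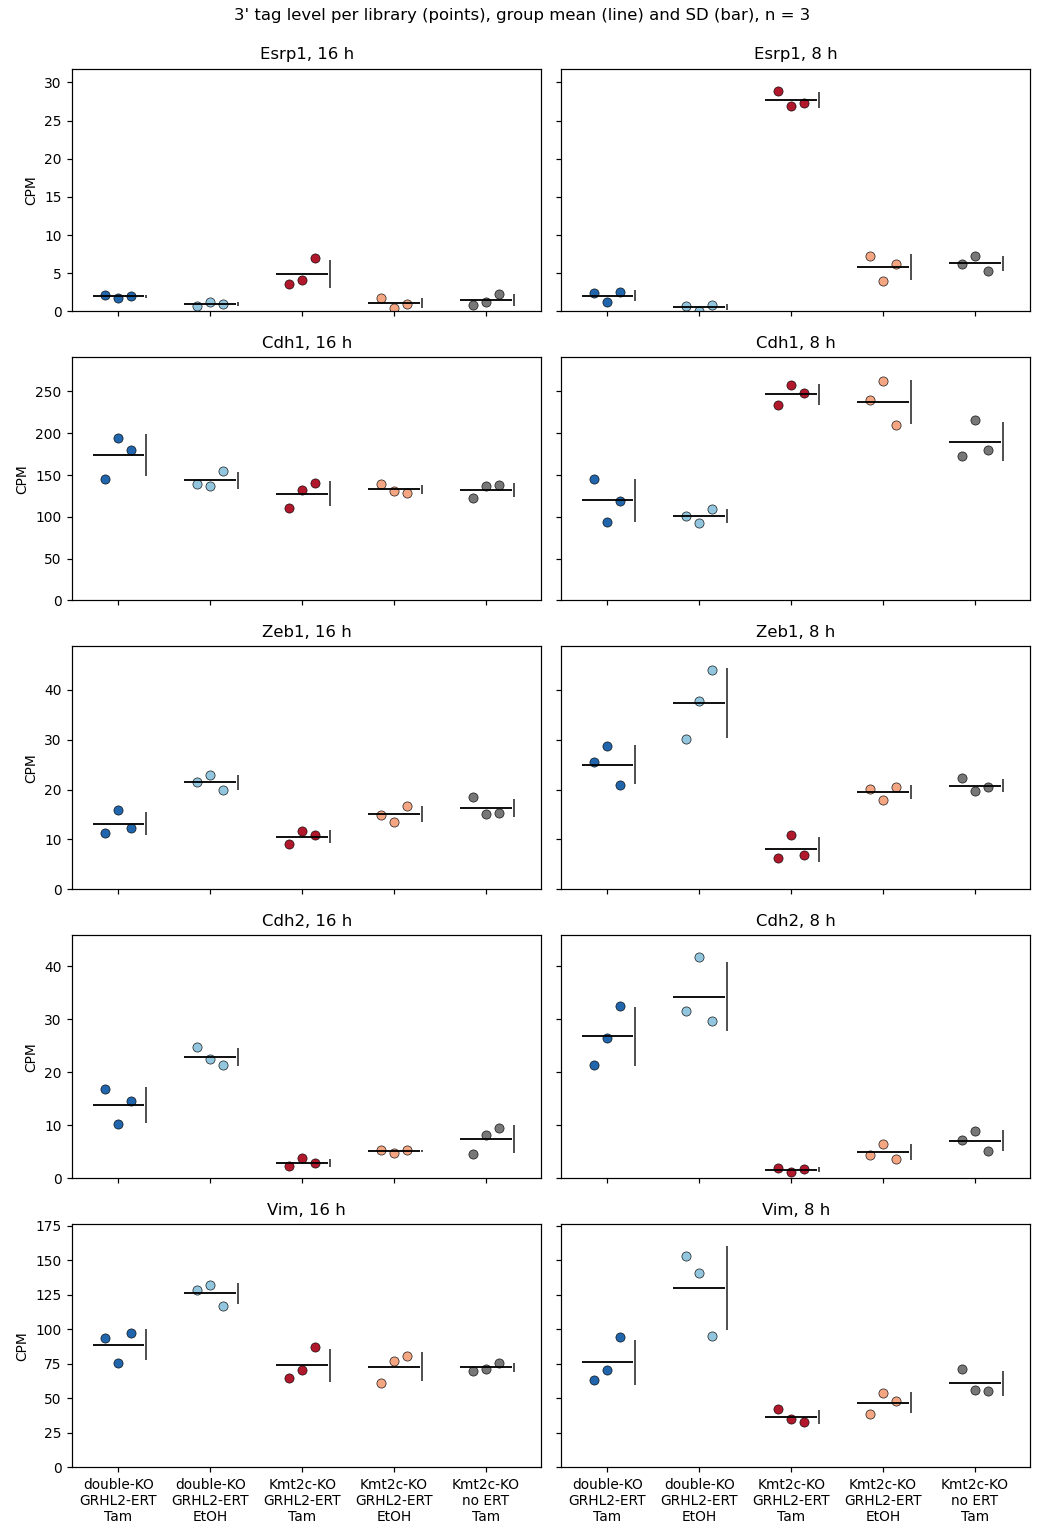
Level of each gene in CPM, by group, at 16 h (left) and 8 h (right), with 1 point per library, a line at the group mean and a bar of 1 SD (n = 3). At 8 h the 3 tamoxifen libraries of Kmt2c-KO GRHL2-ERT cells lie between 26.9 and 28.9 CPM for Esrp1, above all other libraries, and double-KO libraries are highest for Cdh2.

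The first comparison set 8 h of tamoxifen against ethanol in Kmt2c-KO GRHL2-ERT cells, which keep Kmt2d. GRHL2 in the nucleus was not measured, and tamoxifen itself and activated GRHL2 cannot be told apart in this contrast. Esrp1 rose, Zeb1 and Cdh2 fell, and Cdh1 and Vim did not pass the test. Across all genes 4.95% passed (limma, adjusted p under 0.05), against 3 of the 5 members.

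Esrp1 had 28.9, 26.9 and 27.3 CPM in tamoxifen-treated Kmt2c-KO GRHL2-ERT cells at 8 h, against 7.32, 3.98 and 6.24 CPM in ethanol. Every tamoxifen library was above every ethanol library, and the mean was 4.74 times that in ethanol. The log2 fold change on log2(CPM + 1), a scale that understates the change of low genes, was 2.10 ± 0.27 (SE; adjusted p = 7.1e-06). In bulk RNA, more cells with Esrp1 and more Esrp1 RNA per cell cannot be told apart, and the same holds for each difference that follows.

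Cdh1 had 234, 258 and 248 CPM in tamoxifen, against 240, 263 and 210 CPM in ethanol. The libraries overlapped. The log2 fold change was 0.06, with a 95% interval of -0.21 to 0.33 (adjusted p = 0.86), so a change of the size seen for Esrp1 lies outside it. Without ethanol replicate 3 the value was -0.03.

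Zeb1 had 6.23, 10.9 and 6.88 CPM in tamoxifen, against 20.05, 18.0 and 20.5 CPM in ethanol. The groups did not overlap, and the mean in tamoxifen was 0.411 of that in ethanol. Zeb1 fell by 1.22 ± 0.17 on the log2 scale (SE; adjusted p = 3.4e-05).

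Cdh2 had 2.02, 1.13 and 1.66 CPM in tamoxifen, against 4.40, 6.55 and 3.65 CPM in ethanol, again without overlap. It fell by 1.16 ± 0.24 on the log2 scale (SE; adjusted p = 0.0035), to 0.329 of the ethanol mean in CPM. Vim had 42.0, 34.9 and 32.7 CPM in tamoxifen, against 38.4, 53.7 and 48.3 CPM in ethanol. Its groups overlapped, and the log2 fold change of -0.34 did not pass (95% interval -0.69 to 0.004; adjusted p = 0.29).

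Some marker lists of other cell types also moved in this contrast. Summed neuroectoderm markers were 53.0 to 61.4 CPM in tamoxifen, against 76.5 to 105 CPM in ethanol, primitive endoderm markers 351 to 389 CPM in tamoxifen, against 490.2 to 579 CPM in ethanol, and trophoblast markers 313 to 346 CPM in tamoxifen, against 221 to 252 CPM in ethanol. Fibroblast markers were at 1.06 to 1.31 CPM in tamoxifen and 1.53 to 3.57 CPM in ethanol, while those of naive stem cells and mesoderm overlapped. Some of these markers also stand in the epithelial or mesenchymal lists described below. Ncam1, a neuroectoderm marker here, averaged 25.3 CPM in tamoxifen and 53.5 CPM in ethanol. Sparc, a primitive endoderm marker here, averaged 300 CPM in tamoxifen and 484 CPM in ethanol. Krt18 and Krt8, trophoblast markers here, averaged 115 and 68.3 CPM in tamoxifen, against 74.8 and 45.6 CPM in ethanol. The sums thus do not count cells, and the part of other cell types in the result was not tested.

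GRHL2-ERT cells were also set against transgene-free Kmt2c-KO cells, both in tamoxifen. These contrasts use the same tamoxifen libraries as the response above and another set of controls. The transgene and other differences between the lines cannot be told apart in them, and the effect of tamoxifen itself was not measured. At 8 h, 4.07% of all genes passed, and 4 of 5 members did. Esrp1 had 28.9, 26.9 and 27.3 CPM in GRHL2-ERT cells, against 6.23, 7.29 and 5.33 CPM in transgene-free cells, with no overlap (log2 fold change 1.99 ± 0.27 SE, adjusted p = 1.4e-05). Zeb1 had 6.23, 10.9 and 6.88 CPM in GRHL2-ERT cells, against 22.3, 19.6 and 20.5 CPM in transgene-free cells, again apart (log2 fold change -1.31 ± 0.17 SE, adjusted p = 9.4e-06). Cdh2 had 2.02, 1.13 and 1.66 CPM in GRHL2-ERT cells, against 7.23, 8.999 and 5.06 CPM in transgene-free cells, also without overlap (log2 fold change -1.62 ± 0.24 SE, adjusted p = 5.0e-05).

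Vim differed in this contrast too, with 42.0, 34.9 and 32.7 CPM in GRHL2-ERT cells, against 71.0, 56.1 and 55.1 CPM in transgene-free cells. The log2 fold change of -0.72 passed (adjusted p = 0.011), and was lost without GRHL2-ERT replicate 2 (adjusted p = 0.057), GRHL2-ERT replicate 3 (0.072) or transgene-free replicate 1 (0.095). Cdh1 had 234, 258 and 248 CPM in GRHL2-ERT cells, against 172, 216 and 181 CPM in transgene-free cells. Its libraries did not overlap, while the log2 fold change of 0.38 missed the threshold (adjusted p = 0.11) and passed with library weights (0.0039) or with the libraries of the contrast alone (0.0016). The fit with library weights called 1254 genes, against 505 with equal weights.

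At 16 h Esrp1 was the only member that passed in Kmt2c-KO GRHL2-ERT cells, where 0.298% of all genes passed. Esrp1 had 3.60, 4.17 and 6.96 CPM in tamoxifen, against 1.78, 0.476 and 0.935 CPM in ethanol. Tamoxifen libraries were again all higher, with a mean 4.62-fold that in ethanol and a log2 fold change of 1.53 ± 0.27 (SE; adjusted p = 0.0036). The call was lost without tamoxifen replicate 3 (log2 fold change 1.29, adjusted p = 0.066) or ethanol replicate 2 (1.31, adjusted p = 0.059).

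The other members at 16 h had adjusted p of 0.58 or more. Zeb1 had 9.15, 11.8 and 10.8 CPM in tamoxifen, against 15.0, 13.5 and 16.7 CPM in ethanol, with no overlap and a log2 fold change of -0.47 (95% interval -0.83 to -0.12). Cdh2 had 2.25, 3.74 and 2.80 CPM in tamoxifen, against 5.26, 4.84 and 5.32 CPM in ethanol, with no overlap and a log2 fold change of -0.66 (95% interval -1.16 to -0.17). These intervals are for single genes and lie below 0, whereas the adjusted p counts all tested genes. Cdh1 averaged 128 ± 15.0 CPM in tamoxifen and 133 ± 5.47 CPM in ethanol (SD, n = 3 each), and Vim averaged 73.9 ± 12.0 CPM in tamoxifen and 72.8 ± 10.4 CPM in ethanol (SD, n = 3 each). Both overlapped between groups.

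Against transgene-free cells in tamoxifen at 16 h, Esrp1 (log2 fold change 1.25, adjusted p = 0.014) and Cdh2 (-1.07, adjusted p = 0.022) passed, where 0.975% of all genes did. Esrp1 had 3.60, 4.17 and 6.96 CPM in GRHL2-ERT cells, against 0.911, 1.21 and 2.33 CPM in transgene-free cells. Cdh2 had 2.25, 3.74 and 2.80 CPM in GRHL2-ERT cells, against 4.49, 8.25 and 9.57 CPM in transgene-free cells. Zeb1 (-0.58, adjusted p = 0.13), Cdh1 (-0.06) and Vim (0.02) did not pass. Both calls depended on single libraries. Esrp1 lost its call without GRHL2-ERT replicate 3 (adjusted p = 0.16), transgene-free replicate 1 (0.12) or transgene-free replicate 2 (0.086). Cdh2 lost its call without GRHL2-ERT replicate 1 (0.14) or 3 (0.098), or transgene-free replicate 2 (0.14) or 3 (0.16).

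The size of the tamoxifen response in Kmt2c-KO GRHL2-ERT cells was set between the times as a difference of responses, 16 h minus 8 h. None of the 5 members passed (limma; 1 at an unadjusted p under 0.05, Zeb1, as had 6.36% of all genes), with 0.0644% of all genes passing. For Esrp1 the difference was -0.57 on the log2 scale (95% interval -1.35 to 0.21; adjusted p = 0.89). The ratio of CPM means was similar, 4.62 at 16 h and 4.74 at 8 h, although the levels behind it were lower at 16 h in both groups. With a pseudocount of 5 CPM the difference for Esrp1 passed (-0.91, limma adjusted p = 0.020), in a fit that called 28 genes, against 8 with 1 CPM. For Zeb1 it was 0.75 (95% interval 0.25 to 1.25; adjusted p = 0.49).

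In double-KO cells no member passed in the tamoxifen response at 8 h (limma; 3 of 5 at an unadjusted p under 0.05, as had 20.3% of all genes), where 0.0967% of all genes passed. Esrp1 had 2.45, 1.24 and 2.50 CPM in tamoxifen, against 0.734, 0.091 and 0.810 CPM in ethanol. The groups did not overlap and the ratio of means was 3.78, yet 1 ethanol library held 2 reads, and the log2 fold change of 0.99 (95% interval 0.44 to 1.54) had an adjusted p of 0.13. Vim had 62.9, 70.8 and 94.5 CPM in tamoxifen, against 153, 141 and 95.1 CPM in ethanol. These libraries did not overlap either, by a margin of less than 1 CPM, and the log2 fold change was -0.75 (adjusted p = 0.064).

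Zeb1 in double-KO cells at 8 h was 25.4, 28.7 and 20.8 CPM in tamoxifen, against 30.1, 37.8 and 44.0 CPM in ethanol, with a log2 fold change of -0.55 (95% interval -0.91 to -0.20; adjusted p = 0.15). Cdh2 had 21.4, 26.4 and 32.6 CPM in tamoxifen, against 31.6, 41.7 and 29.6 CPM in ethanol, and these overlapped (log2 fold change -0.35, adjusted p = 0.40). Cdh1 had 146, 93.7 and 119 CPM in tamoxifen, against 101, 92.5 and 109 CPM in ethanol, and also overlapped (log2 fold change 0.22, adjusted p = 0.33). Without tamoxifen replicate 3, Esrp1 (0.88, adjusted p = 0.032) and Vim (-0.92, adjusted p = 0.0025) passed in a fit that called 3146 genes, against 12 with all libraries. Without ethanol replicate 3, Vim passed (-0.96, adjusted p = 0.014).

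At 16 h the double-KO response had 0 members past the threshold (limma; 4 of 5 at an unadjusted p under 0.05, as had 4.18% of all genes), where 0.0403% of all genes passed. Esrp1 had 2.11, 1.78 and 2.03 CPM in tamoxifen, against 0.682, 1.18 and 1.04 CPM in ethanol. The ratio of means was 2.05, with no overlap and a log2 fold change of 0.60 (95% interval 0.05 to 1.16; adjusted p = 1.0). Zeb1 had 11.4, 15.8 and 12.3 CPM in tamoxifen, against 21.5, 22.9 and 19.9 CPM in ethanol (log2 fold change -0.67, adjusted p = 0.28). Cdh2 had 16.9, 10.2 and 14.7 CPM in tamoxifen, against 24.9, 22.4 and 21.4 CPM in ethanol (-0.70, adjusted p = 0.72). Vim had 93.4, 75.8 and 97.5 CPM in tamoxifen, against 129, 132 and 117 CPM in ethanol (-0.51, adjusted p = 0.70). In Zeb1, Cdh2 and Vim every tamoxifen library was below every ethanol library, and the share of all genes without overlap was not computed. With library weights in the fit all 3 passed (limma adjusted p = 2.2e-04, 0.035 and 0.037). That fit called 206 genes, against 5 with equal weights, and the estimation of its weights stopped before it converged. Cdh1 had 146, 195 and 180 CPM in tamoxifen, against 139, 137 and 155 CPM in ethanol, with overlap (0.26, adjusted p = 1.0).

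Whether the response differs between the lines was tested as the double-KO response minus the Kmt2c-KO response. Loss of Kmt2d, the Grhl2 level and other differences between the clones cannot be told apart in this contrast. At 8 h none of the members passed (limma; 3 of 5 at an unadjusted p under 0.05, as had 24.9% of all genes), against 1.43% of all genes. For Esrp1 the difference was -1.11 (95% interval -1.89 to -0.33; adjusted p = 0.099), from responses of 0.99 in double-KO and 2.10 in Kmt2c-KO cells. Zeb1 had a difference of 0.67 (95% interval 0.16 to 1.17; adjusted p = 0.11), from -0.55 in double-KO and -1.22 in Kmt2c-KO cells. Cdh2 had a difference of 0.81 (95% interval 0.11 to 1.51; adjusted p = 0.15), from -0.35 in double-KO and -1.16 in Kmt2c-KO cells. Cdh1 (0.17, adjusted p = 0.59) and Vim (-0.41, adjusted p = 0.29) had intervals that hold 0. The median difference over all genes was -0.10 on this scale. Esrp1 passed with a pseudocount of 5 CPM (-1.26, limma adjusted p = 1.7e-04), in a fit that called 294 genes, against 177 with 1 CPM. In CPM the ratio of Esrp1 means, tamoxifen over ethanol, was 3.78 in double-KO and 4.74 in Kmt2c-KO cells. A pseudocount shrinks the change at the lower Esrp1 levels of double-KO cells more, so the differences for Esrp1 are partly set by it. Esrp1 and Zeb1 passed without double-KO tamoxifen replicate 3 (limma adjusted p = 0.028 and 0.024). Leaving out that library also greatly raised the number of genes called in the double-KO response, as given above. The result for these members thus depends on the fit. Grhl2 tags in ethanol at 8 h were 41.2 ± 10.1 CPM in double-KO cells and 178 ± 28.3 CPM in Kmt2c-KO GRHL2-ERT cells (SD, n = 3 each), a line difference of -2.10 (limma adjusted p = 1.5e-07). The part of the Grhl2 level in the response was not tested.

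At 16 h, 0 of 5 members and 0.0% of all genes passed for the difference of responses (limma; 2 members at an unadjusted p under 0.05, as had 2.54% of all genes). Esrp1 had -0.92 (95% interval -1.70 to -0.14) and Vim -0.53 (95% interval -1.02 to -0.03), both with an adjusted p of 1.0. Cdh1 (0.32), Zeb1 (-0.20) and Cdh2 (-0.04) had intervals that hold 0, and the widest of these 3, for Cdh2, ran from -0.74 to 0.66. Between times, 16 h minus 8 h, the double-KO responses had 0 members and 0.0% of all genes past the threshold (limma; 0 members at an unadjusted p under 0.05, which 5.75% of all genes had), with differences from -0.39 (Esrp1) to 0.25 (Vim).

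**Figure D2:**
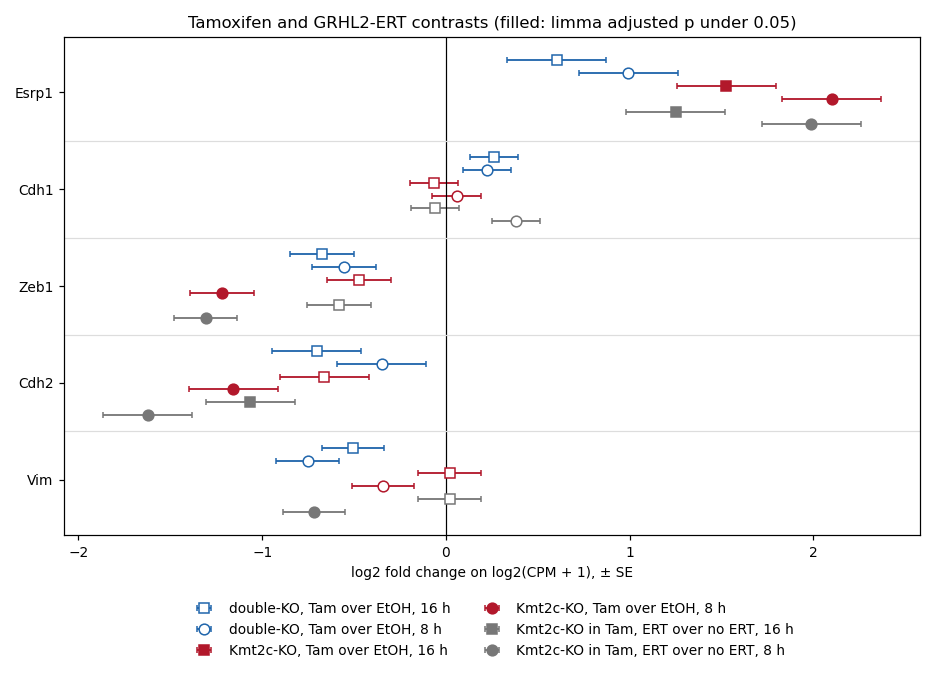
Log2 fold change on log2(CPM + 1) with its SE, for each gene and 6 contrasts: tamoxifen over ethanol in double-KO and in Kmt2c-KO GRHL2-ERT cells, and GRHL2-ERT over transgene-free Kmt2c-KO cells in tamoxifen, at 16 h (squares) and 8 h (circles). Filled symbols have a limma adjusted p under 0.05; Esrp1 is above 0 and Zeb1 and Cdh2 are below 0 in all 6 contrasts, and Cdh1 stays within 0.4 of 0.

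The ratio of Cdh1 to Cdh2 tags within a library needs no scaling between libraries. Its absolute size depends on tag capture, so only groups are compared. In Kmt2c-KO GRHL2-ERT cells at 8 h it was 115, 229 and 149 in tamoxifen, against 54.5, 40.1 and 57.5 in ethanol, and 23.8, 24.1 and 35.7 in transgene-free cells in tamoxifen. The 3 groups did not overlap. Between tamoxifen and ethanol the ratio of means was 1.04 for Cdh1 and 0.329 for Cdh2. In double-KO cells at 8 h the ratio was 6.80, 3.55 and 3.66 in tamoxifen, against 3.19, 2.22 and 3.69 in ethanol, and these overlapped. At 16 h it was 8.63, 19.1 and 12.3 in tamoxifen and 5.58, 6.12 and 7.25 in ethanol for double-KO cells, without overlap. Kmt2c-KO GRHL2-ERT cells at 16 h had 49.3, 35.2 and 50.1 in tamoxifen, against 26.4, 27.0 and 24.1 in ethanol, also without overlap, and 27.4, 16.5 and 14.4 in transgene-free cells in tamoxifen. Double-KO libraries stayed below the Kmt2c-KO GRHL2-ERT libraries at each time, the highest being 19.1 in double-KO and the lowest 24.1 in Kmt2c-KO GRHL2-ERT cells. These ratios are a description, and no test was made on them.

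**Figure D3:**
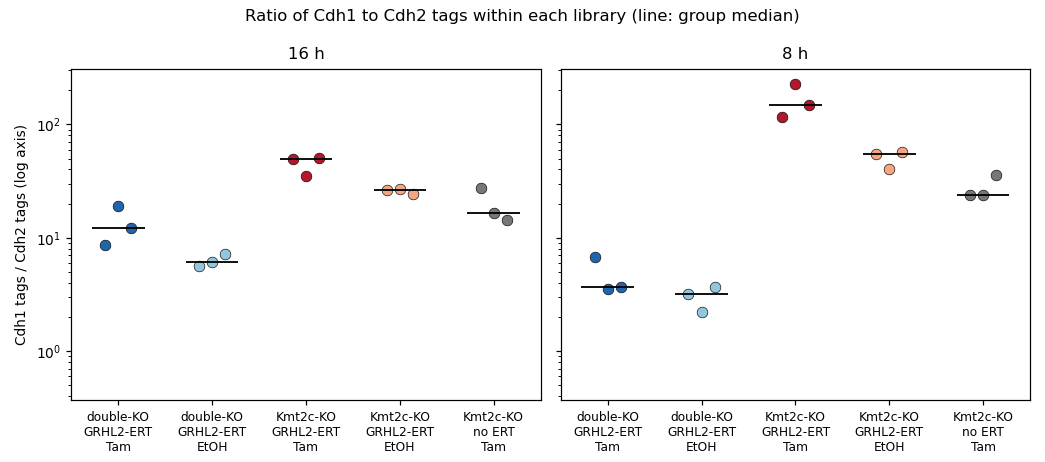
Ratio of Cdh1 tags to Cdh2 tags in each library (points; log axis), by group, at 16 h (left) and 8 h (right), with a line at the group median. Kmt2c-KO GRHL2-ERT cells in tamoxifen have the highest median at both times (49.3 at 16 h and 149 at 8 h), and both double-KO groups have the lowest.

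The lines also differed without tamoxifen. In ethanol at 8 h all 5 members passed between double-KO and Kmt2c-KO GRHL2-ERT cells, with the mesenchymal genes higher and the epithelial genes lower in double-KO cells. Of all genes 49.4% passed in this contrast.

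Cdh2 had 31.6, 41.7 and 29.6 CPM in double-KO cells, against 4.40, 6.55 and 3.65 CPM in Kmt2c-KO GRHL2-ERT cells, a ratio of means of 7.05 (log2 fold change 2.60 ± 0.24 SE, adjusted p = 1.2e-09). Vim had 153, 141 and 95.1 CPM in double-KO cells, against 38.4, 53.7 and 48.3 CPM in Kmt2c-KO GRHL2-ERT cells (log2 fold change 1.43 ± 0.17 SE, adjusted p = 9.6e-08). Zeb1 had 30.1, 37.8 and 44.0 CPM in double-KO cells, against 20.05, 18.0 and 20.5 CPM in Kmt2c-KO GRHL2-ERT cells (0.89 ± 0.17 SE, adjusted p = 1.4e-04). No library of either line reached the range of the other for these 3 genes, and the share of all genes without overlap was not computed.

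Cdh1 had 101, 92.5 and 109 CPM in double-KO cells, against 240, 263 and 210 CPM in Kmt2c-KO GRHL2-ERT cells (log2 fold change -1.23 ± 0.13 SE, adjusted p = 1.7e-08). Esrp1 had 0.734, 0.091 and 0.810 CPM in double-KO cells, against 7.32, 3.98 and 6.24 CPM in Kmt2c-KO GRHL2-ERT cells (-2.15 ± 0.27 SE, adjusted p = 2.4e-07). The epithelial pair was thus lower in every double-KO library at 8 h, again without a share of all genes to set beside it.

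At 16 h the mesenchymal genes were again higher in double-KO cells under CPM scaling, and the epithelial genes did not pass. Of all genes 50.0% passed, and 3 of 5 members did, a count near that share. The median over all genes was 0.35 on the log2 scale. Cdh2 had 24.9, 22.4 and 21.4 CPM in double-KO cells, against 5.26, 4.84 and 5.32 CPM in Kmt2c-KO GRHL2-ERT cells (log2 fold change 1.96 ± 0.24 SE, adjusted p = 1.7e-07). Vim had 129, 132 and 117 CPM in double-KO cells, against 60.9, 77.1 and 80.3 CPM in Kmt2c-KO GRHL2-ERT cells (0.79 ± 0.17 SE, adjusted p = 3.5e-04). Zeb1 had 21.5, 22.9 and 19.9 CPM in double-KO cells, against 15.0, 13.5 and 16.7 CPM in Kmt2c-KO GRHL2-ERT cells (0.49, adjusted p = 0.021), and lost its call without replicate 2 of either group (adjusted p = 0.073 and 0.086). It also lost its call with the other scaling described below.

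Cdh1 at 16 h had 139, 137 and 155 CPM in double-KO cells, against 139, 131 and 129 CPM in Kmt2c-KO GRHL2-ERT cells, and overlapped (0.11, 95% interval -0.16 to 0.38, adjusted p = 0.49). Esrp1 had 0.682, 1.18 and 1.04 CPM in double-KO cells, against 1.78, 0.476 and 0.935 CPM in Kmt2c-KO GRHL2-ERT cells, and overlapped (-0.03, 95% interval -0.58 to 0.52, adjusted p = 0.94).

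Scaling matters for these line contrasts, because CPM put the median of all genes 0.31 (8 h) and 0.35 (16 h) above 0. With median-of-ratios scaling the median was 0.03 and 0.02, and the share of genes called higher in double-KO cells at 8 h was 20.9%, against 37.6% with CPM, while the share called lower was 21.3%, against 11.9%. Under that scaling all 5 members still passed at 8 h, with Cdh1 at -1.54 and Zeb1 at 0.58. At 16 h Cdh2 (1.63) and Vim (0.43) still passed, Zeb1 did not (0.14, adjusted p = 0.59), and Cdh1 turned to -0.25 (adjusted p = 0.10).

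**Figure D4:**
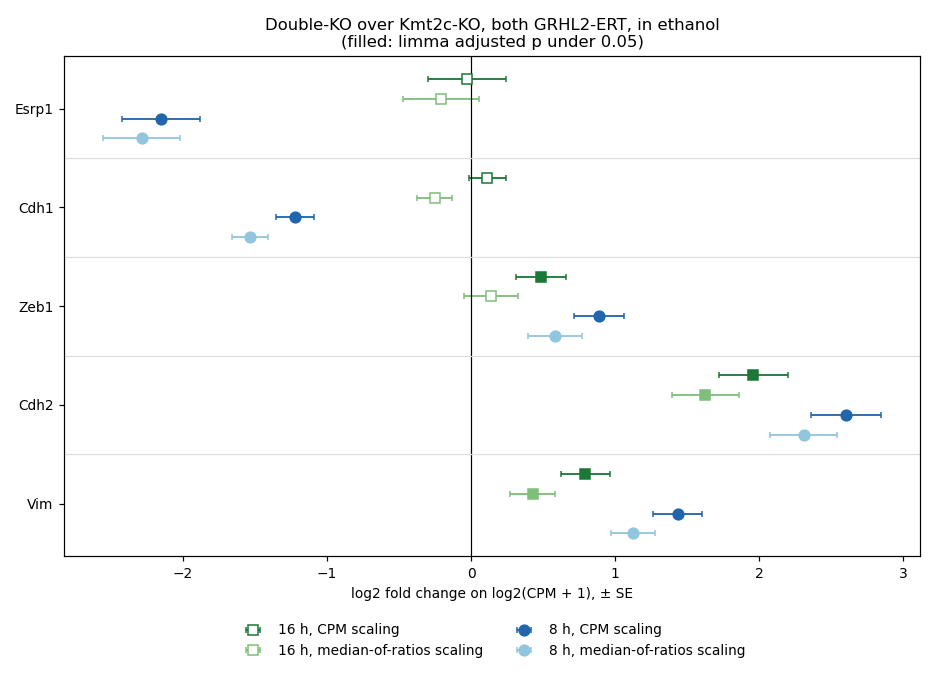
Log2 fold change with its SE, double-KO over Kmt2c-KO GRHL2-ERT cells in ethanol, at 16 h (squares) and 8 h (circles), under CPM scaling (dark) and median-of-ratios scaling (light). Filled symbols have a limma adjusted p under 0.05; Cdh2 is above 1.6 in all 4 fits, while Esrp1 and Cdh1 are below 0 and filled at 8 h and open at 16 h.

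Markers of other cell types moved with the line. Summed neuroectoderm markers (9 of 10 measured; Neurog2 not analysed here) were 167 to 200 CPM in double-KO cells, against 76.5 to 105 CPM in Kmt2c-KO GRHL2-ERT cells in ethanol at 8 h. Summed mesoderm markers (5 of 10 measured) were 15.4 to 34.0 CPM in double-KO cells, against 9.25 to 11.8 CPM in Kmt2c-KO GRHL2-ERT cells, and Tbxt, Mesp1, Mesp2, Tbx6 and Kdr were not analysed here. Summed fibroblast markers (4 of 14 measured) were 6.28 to 11.1 CPM in double-KO cells, against 1.53 to 3.57 CPM in Kmt2c-KO GRHL2-ERT cells, and Dcn, Lum, Col3a1 and Pdgfrb were among the 10 not analysed here. Of this sum Twist1, also listed as an EMT transcription factor, averaged 4.62 CPM in double-KO cells, against 0.839 CPM in Kmt2c-KO GRHL2-ERT cells. Naive stem cell markers went the other way, with 5565 to 5721 CPM in double-KO cells, against 8774 to 10499 CPM in Kmt2c-KO GRHL2-ERT cells. Primitive endoderm markers (10 of 14 measured) were 349 to 386 CPM in double-KO cells, against 490.2 to 579 CPM in Kmt2c-KO GRHL2-ERT cells. Within this list Sparc was lower in double-KO cells, at a mean of 233 against 484 CPM. Col4a1 (83.2 against 8.02 CPM) and Pdgfra (1.95 against 0.222 CPM) were higher. Trophoblast markers (10 of 13 measured) overlapped at 8 h, with 249 to 268 CPM in double-KO cells, against 221 to 252 CPM in Kmt2c-KO GRHL2-ERT cells. At 16 h all 6 lists were apart between the lines, in the same directions, and trophoblast markers were 284 to 302 CPM in double-KO cells, against 87.5 to 102 CPM in Kmt2c-KO GRHL2-ERT cells. Of the trophoblast list Krt18 and Krt8 averaged 103 and 105 CPM in double-KO cells at 16 h, against 17.5 and 26.3 CPM in Kmt2c-KO GRHL2-ERT cells. A sum in which single genes weigh heavily does not count cells. The part of other cell types in the differences of the members was not tested.

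Time without tamoxifen-activated GRHL2 was compared as 16 h minus 8 h. All 16 h libraries are separate from all 8 h libraries, so handling at each time and time itself cannot be told apart, and Rn45s took 1.85% to 2.61% of CPM at 16 h, against 3.10% to 7.40% at 8 h. In Kmt2c-KO GRHL2-ERT cells in ethanol 3 of 5 members passed, a count near the 45.0% of all genes that did. Esrp1 had 1.78, 0.476 and 0.935 CPM at 16 h, against 7.32, 3.98 and 6.24 CPM at 8 h (log2 fold change -1.75 ± 0.27 SE, adjusted p = 1.1e-05). Cdh1 averaged 133 ± 5.47 CPM at 16 h and 238 ± 26.6 CPM at 8 h (SD, n = 3 each), and fell by 0.83 on the log2 scale (adjusted p = 1.6e-05). Vim rose, with 72.8 ± 10.4 CPM at 16 h and 46.8 ± 7.74 CPM at 8 h (SD, n = 3 each; log2 fold change 0.63, adjusted p = 0.0038).

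Transgene-free cells in tamoxifen had 2 of 5 members that passed, near the 36.6% of all genes that did. Esrp1 was 1.48 ± 0.745 CPM at 16 h and 6.28 ± 0.982 CPM at 8 h, and Cdh1 was 132 ± 8.28 CPM at 16 h and 190 ± 23.5 CPM at 8 h (SD, n = 3 each; log2 fold changes -1.59 and -0.51, adjusted p = 5.8e-05 and 0.0035). Double-KO cells in ethanol also had 2, where 21.3% of all genes did. Cdh1 rose, with 144 ± 10.0 CPM at 16 h and 101 ± 8.37 CPM at 8 h (0.51, adjusted p = 0.0073), and Zeb1 fell, with 21.4 ± 1.497 CPM at 16 h and 37.3 ± 7.004 CPM at 8 h (-0.76, adjusted p = 0.0030; SD, n = 3 each). Cdh1 thus fell in both Kmt2c-KO lines and rose in double-KO cells. The other 3 members in double-KO cells and transgene-free cells, and Zeb1 and Cdh2 in Kmt2c-KO GRHL2-ERT cells, did not pass. The all-gene medians were -0.12, -0.15 and -0.06 in Kmt2c-KO GRHL2-ERT, transgene-free and double-KO cells.

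The other genes of the switch were described through lists, several of which hold members. Among epithelial state genes (34 of 36 measured), 15 rose and 0 fell in Kmt2c-KO GRHL2-ERT cells after 8 h of tamoxifen, where 2.92% of all genes rose, and the list's median log2 fold change was 0.61, against 0.03 over all genes. Ppl, a plakin of desmosomes (2.22), the tight junction genes Cldn6 (1.82), Cgn (2.11) and Cldn4 (0.75), and Esrp1 were among those with the smallest adjusted p. At 16 h 5 rose and 0 fell (median 0.43). In double-KO cells 3 rose at 8 h, namely Epcam (1.26), Cldn4 (0.92) and Ppl (1.32), and 2 at 16 h, Epcam (1.08) and Cldn4 (0.89). For the difference of responses at 8 h, 4 of the list were lower in double-KO cells, among them Cgn (-2.74), Cldn6 (-1.44) and the trafficking gene Mal2 (-1.49), where 0.902% of all genes were lower, and the median was -0.50, against -0.10 over all genes. Several genes of this list are known GRHL2 targets, and the list was chosen with results of these data known.

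Among mesenchymal state genes (28 of 32 measured), 3 fell after 8 h of tamoxifen in Kmt2c-KO GRHL2-ERT cells. They were the neural adhesion gene Ncam1 (-1.04), Sparc, a secreted matrix protein (-0.69), and Cdh2, where 2.04% of all genes fell, and the actin-binding Cald1 rose (0.43), a call that median-of-ratios scaling lost. The list's median was -0.13. Ncam1 also fell in double-KO cells at 8 h (-0.74, adjusted p = 0.0036). Among 16 measured of 21 EMT transcription factors only Zeb1 fell, Id2, an inhibitor of basic helix-loop-helix factors, rose (0.56), and the others did not pass (median -0.02). The remaining lists had few calls in this contrast. Cdh2 alone passed among 14 measured cadherin and catenin genes, and Esrp1 alone among 18 splicing regulators. Both counts are near the 4.95% of all genes that passed, and both genes are members. Krt18 (0.61), Krt8 (0.57) and Plec (0.70) rose and Nefl fell (-0.73) among 16 intermediate filament genes. Smad3 rose (0.84) and Tgfb2 fell (-0.89) among 17 genes of TGF-beta and BMP signalling.

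Between double-KO and Kmt2c-KO GRHL2-ERT cells in ethanol, EMT transcription factors were mostly higher in double-KO cells. At 8 h, 12 of 16 were higher and 0 lower (11 and 1 with median-of-ratios scaling), where 37.6% of all genes were higher, with a median of 1.23, against 0.31 over all genes. Sox4 (2.80), Sox9 (3.36), Id1 (3.37), Snai2 (2.13), Id3 (3.85) and Zeb2 (1.59) led them. At 16 h, 15 were higher and 0 lower (11 and 1), where 40.0% of all genes were higher. Mesenchymal state genes were higher in 20 and lower in 3 of 28 at 8 h, and higher in 24 and lower in 1 at 16 h (15 and 3, and 21 and 2, with median-of-ratios scaling). Basement membrane collagen Col4a1 (3.25), smooth muscle actin Acta2 (3.63), Cald1 (1.73), the collagen gene Col5a2 (2.42), Cdh2 and the integrin gene Itgb1 (1.09) had the smallest adjusted p at 8 h. Sparc (-1.05) and Fn1 (-0.57) were among those lower at 8 h, and both are named there after their values were seen.

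Of 34 epithelial state genes, 5 were higher and 11 lower at 8 h and 11 higher and 3 lower at 16 h in double-KO cells (5 and 16, and 8 and 7, with median-of-ratios scaling). The counts at 16 h were near the shares of all genes given below, under both scalings. Besides Cdh1 and Esrp1, Epcam (-1.32), Crb3, a polarity gene (-2.14), and Grhl2 (-2.10) were lower at 8 h, and Krt19 (1.73) was higher. Grhl2 is among the 11 lower, but its tags do not separate the transgene from the cells' own gene. Without the transgene they averaged 2.66 CPM at 8 h and 1.78 CPM at 16 h, in tamoxifen. The counts of the epithelial list and of the 4 remaining lists stand beside shares of all genes. These were 37.6% higher and 11.9% lower at 8 h and 40.0% higher and 9.96% lower at 16 h. With median-of-ratios scaling they were 20.9% and 21.3% at 8 h and 20.7% and 20.8% at 16 h. The splicing regulators were 10 higher and 2 lower of 18 at 8 h, and 10 higher and 0 lower at 16 h, but 6 and 4, and 5 and 1, with median-of-ratios scaling. Mbnl2 (1.496), Mbnl1 (1.19), Khdrbs1 (0.58), Rbfox2 (0.69) and Mbnl3 (0.68) were higher at 8 h under both scalings. Cadherin and catenin genes were 4 higher and 3 lower of 14 at 8 h, and 3 higher and 2 lower at 16 h, whereas more were lower than higher with median-of-ratios scaling (4 and 5, and 3 and 6). Intermediate filament genes were 6 higher and 2 lower of 16 at 8 h, near the share of all genes, and 10 higher and 0 lower at 16 h (6 and 4, and 10 and 0, with median-of-ratios scaling). TGF-beta and BMP genes were 7 higher and 1 lower of 17 at 8 h, also near that share, and 9 higher and 1 lower at 16 h (5 and 1, and 6 and 1, with median-of-ratios scaling), with Tgfb2 (2.15) and Bmp4 (2.31) higher at 8 h.

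The members were related to each other over the 10 group means of log2(CPM + 1), which share libraries within groups and line and time effects. Pearson's r was 0.80 between Esrp1 and Cdh1 and 0.83 between Zeb1 and Cdh2, and Vim had 0.82 with Cdh2 and 0.61 with Zeb1. Every epithelial and mesenchymal pair had a negative r, from -0.52 (Cdh1 and Zeb1) to -0.87 (Esrp1 and Vim). Among 8480 genes, those most like Esrp1 in pattern were Fhl1 (0.97), Kcnk1 (0.97) and Sdc4 (0.95). Among those most like Cdh1 were Lrrc8d (0.91) and Diap1 (0.90). Those most like Zeb1 were Lifr (0.93), Kdm3b (0.93) and She (0.92). Among those most like Cdh2 were Pfkm (0.98) and Mum1l1 (0.97), and most like Vim were Arxes2 (0.96), Degs1 (0.95) and Epha7 (0.94).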

How the data were processed

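The authors' deposited values are log2 values per gene and library from QuantSeq 3' libraries, read as single 50 bp ends, with Salmon, DESeq2 1.34.0 and mm10 listed in the submitters' processing notes. The steps between reads and values are not given in the sources used here. Removing the log and a constant of 0.124871 CPM that it held gave CPM in whole-read steps, which returned the depth of each library, and the offset limits the precision of low values. Differences were tested on log2(CPM + 1) by limma (3.58.1, under R 4.3.3), with a trend of variance and robust moderation, in 1 fit over all 30 libraries (10 groups, 20 residual degrees of freedom), for the 12414 genes whose mean reached 1 CPM in a group. The filter removed 14 genes, all 5 members passed, and p-values were adjusted by Benjamini-Hochberg over all tested genes in each of 16 contrasts. The fit was tested on simulated data. Genes of the lists other than members were named if their adjusted p was among the 6 smallest in their list and contrast. Genes of like pattern came from those with the 3 highest r for each member. Some cell type markers, such as Twist1 and Pdgfra, and genes used as checks were named outside these rules. Some genes that met the rules for naming are not reported here, but they stayed in the fit and in the counts. The members and lists were chosen with earlier results of these data known. The contrast of line differences between times, and the alternative without 2 libraries rich in Rn45s, were added after the data were seen. Other pseudocounts, scaling, filters, library weights, a replicate block, the libraries of a contrast alone and leaving out each library were tried.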

Additional observations from a re-analysis of the deposited data

Results flagged for a closer look

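The difference between the lines in ethanol was not the same at both times for the epithelial genes. For Esrp1, double-KO over Kmt2c-KO GRHL2-ERT cells was -0.03 at 16 h and -2.15 at 8 h on the log2 scale, and the difference of the 2 values was 2.12 ± 0.38 (SE; limma adjusted p = 8.2e-04). For Cdh1 the line contrast was 0.11 at 16 h and -1.23 at 8 h, a difference of 1.338 ± 0.19 (SE; limma adjusted p = 3.1e-05). Both passed in this added test, where 4.84% of all genes passed, while Zeb1 (-0.40), Cdh2 (-0.65) and Vim (-0.64) did not. The same test gave 1.54 for Grhl2 (adjusted p = 0.0084), whose part in the result was not tested.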

How the results depend on the processing

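Of 80 member results, 27 passed; 22 of these kept their call and direction in every alternative, 5 lost it in at least 1, and 0 turned. The counts of members called moved as follows, and the cause was not tested. The estimation of the library weights stopped before it converged. Between GRHL2-ERT and transgene-free Kmt2c-KO cells at 16 h, 2 became 1 with a pseudocount of 0.1 CPM and 1 with 5 CPM (0 to 2 leaving out a library). With 5 CPM, 1 member passed in the double-KO response at 8 h (Vim, -0.72, adjusted p = 0.043), 1 in the difference of responses at 8 h and 1 in that between times in Kmt2c-KO cells (both Esrp1). With library weights, the count was 2 in the Kmt2c-KO response at 16 h, 3 in the double-KO response at 16 h, 4 for time in double-KO cells and 4 for the added contrast. Smaller moves were from 4 to 5 in the transgene contrast at 8 h (library weights, libraries of the contrast alone, and without the libraries rich in Rn45s; Cdh1), from 2 to 3 in that at 16 h (library weights; Zeb1), from 2 to 3 for time in transgene-free cells (median-of-ratios scaling, Vim, and library weights, Zeb1), from 2 to 3 for time in double-KO cells (5 CPM and libraries of the contrast alone; Cdh2) and from 3 to 2 in the line contrast at 16 h (median-of-ratios scaling; Zeb1). Leaving out a library gave 0 to 2 for the double-KO response and the difference of responses at 8 h, 0 to 1 for the Kmt2c-KO response at 16 h, 2 to 3 for the line contrast at 16 h and the added contrast, and 3 to 4 for the transgene contrast at 8 h. Signs turned only in results that did not pass (13 of them). With 0.1 CPM these were Cdh2 in the difference of responses at 16 h (0.078) and Esrp1 between lines at 16 h (0.0079). Median-of-ratios scaling turned Cdh1 in the double-KO responses between times (-0.049), Cdh1 between lines at 16 h (-0.25) and Vim over time in double-KO cells (0.049). Library weights turned Cdh2 in the difference of responses at 16 h (0.0011). Without the 2 libraries rich in Rn45s, Cdh1 in the Kmt2c-KO response at 8 h (-0.028) and in the double-KO responses between times (-0.13), and Cdh2 over time in Kmt2c-KO GRHL2-ERT cells (-0.057), turned. Leaving out 1 library turned Cdh1 in the Kmt2c-KO response at 8 h (-0.028 to 0.13), Cdh1 in the Kmt2c-KO response at 16 h (-0.13 to 0.033), Vim in the Kmt2c-KO response at 16 h (-0.10 to 0.11), Cdh2 in the difference of responses at 16 h (-0.19 to 0.15), Cdh1 in the double-KO responses between times (-0.13 to 0.19), Zeb1 in the double-KO responses between times (-0.25 to 0.022), Esrp1 in the line contrast at 16 h (-0.25 to 0.21), Cdh1 in the transgene contrast at 16 h (-0.13 to 0.038), Vim in the transgene contrast at 16 h (-0.10 to 0.11), Cdh2 in time in Kmt2c-KO GRHL2-ERT cells (-0.057 to 0.29), Vim in time in double-KO cells (-0.22 to 0.12) and Cdh2 in time in transgene-free cells (-0.16 to 0.32). Replicate numbers were shared by groups, but in 0 of 8 group pairs did every same-numbered pair correlate over 0.1 (-0.577 to 0.175). The libraries were therefore not paired in the fit. With 3 libraries per group this rule cannot decide whether same-numbered libraries shared culture or handling, which the labels do not give. With the replicate block the counts of members called did not move (3 in the Kmt2c-KO response at 8 h), while 553 genes passed there, against 615 without the block, and 81 against 177 in the difference of responses at 8 h. With the libraries of the contrast alone, Esrp1 had no value over time in double-KO cells. Depth limits Esrp1 most, with 2 to 28 reads per library in the ethanol groups other than Kmt2c-KO at 8 h.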
